A study of Homo sapiens with 13 samples.

Results

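Stand-alone lncRNA promoters are here the 3 kb stretches around the canonical transcription start site (TSS) of genes that GENCODE release 44 classes as lncRNA and that lie more than 5 kb from every TSS of a protein-coding transcript. The choice used the annotation only and no measured value. It gave 13420 windows, the members, out of 18702 canonical lncRNA windows and 38596 canonical windows of lncRNA and protein-coding genes together. The windows were read against 6 lists of ChIP-seq peaks from MDA-MB-231, an established human cell line from a triple-negative breast cancer of basal type, which was grown without a treatment and stands for 1 tumour only. The antibodies were directed at the histone marks H3K4me3, H3K4me1 and H3K27ac, at RNA polymerase II (Pol II), at the acetyltransferases p300 and CBP together (p300/CBP), and at CTCF. Each list came from 2 merged libraries, except that of p300/CBP, which came from 1 library of pooled immunoprecipitations.

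Long non-coding RNAs are transcripts that are not translated into protein, and many are transcribed by Pol II from their own promoters and are spliced like messenger RNAs. Many others start within a few kb of a coding promoter and share its open chromatin, which is why only the isolated ones can be read as promoters in their own right. H3K4me3 is known as the mark of active promoters, H3K4me1 as the mark of enhancers and of the flanks of promoters, and H3K27ac, which p300 and CBP deposit, as the mark of active elements of both kinds. CTCF binds insulators and the anchors of chromatin loops.

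To show what these promoters look like, 7 of them are given from 250 bases before the TSS to the base 49 after it, 5′ to 3′ on the strand of the gene, from the GRCh37 (hg19) genome. Capitals mark CG dinucleotides, because their density differed widely between mark combinations. MALAT1, NEAT1 and SBF2-AS1 had H3K4me3 and H3K27ac over a CG-rich sequence. LINC02989 and ENSG00000236098 had peaks of all 6 antibodies in the 3 kb window about a CG-poor one, and MIR222HG lay under the widest H3K4me3 peak of all members. ENSG00000272411 had H3K4me1 and H3K27ac without H3K4me3.

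MALAT1, chr11:65264861-65265160, plus strand: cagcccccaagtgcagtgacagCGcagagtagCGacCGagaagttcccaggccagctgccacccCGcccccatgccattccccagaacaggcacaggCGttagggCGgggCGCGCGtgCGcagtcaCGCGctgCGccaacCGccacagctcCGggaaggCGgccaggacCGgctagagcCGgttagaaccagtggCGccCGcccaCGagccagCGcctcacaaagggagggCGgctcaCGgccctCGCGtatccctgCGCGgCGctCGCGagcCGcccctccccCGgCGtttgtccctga
NEAT1, chr11:65190019-65190318, plus strand: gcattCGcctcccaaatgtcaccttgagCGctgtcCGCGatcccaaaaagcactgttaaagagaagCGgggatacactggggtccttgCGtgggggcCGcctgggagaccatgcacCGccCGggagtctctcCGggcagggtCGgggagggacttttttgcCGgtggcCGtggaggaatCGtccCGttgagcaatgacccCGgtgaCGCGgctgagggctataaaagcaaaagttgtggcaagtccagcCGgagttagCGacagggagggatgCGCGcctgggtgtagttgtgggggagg
SBF2-AS1, chr11:9779565-9779864, plus strand: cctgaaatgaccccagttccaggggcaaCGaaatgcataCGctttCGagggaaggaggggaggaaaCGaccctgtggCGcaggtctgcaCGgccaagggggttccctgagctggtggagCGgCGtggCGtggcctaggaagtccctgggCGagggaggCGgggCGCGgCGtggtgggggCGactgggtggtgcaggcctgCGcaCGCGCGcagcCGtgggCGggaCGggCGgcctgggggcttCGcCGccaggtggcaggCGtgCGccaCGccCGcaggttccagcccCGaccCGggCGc
LINC02989, chr11:12108188-12108487, plus strand: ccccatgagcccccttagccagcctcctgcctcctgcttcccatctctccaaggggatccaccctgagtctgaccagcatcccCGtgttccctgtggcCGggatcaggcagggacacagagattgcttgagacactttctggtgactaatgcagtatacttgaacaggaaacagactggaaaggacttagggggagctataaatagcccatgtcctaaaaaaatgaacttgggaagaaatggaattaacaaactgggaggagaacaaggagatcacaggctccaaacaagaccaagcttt
ENSG00000236098, chr1:94790076-94790375, minus strand: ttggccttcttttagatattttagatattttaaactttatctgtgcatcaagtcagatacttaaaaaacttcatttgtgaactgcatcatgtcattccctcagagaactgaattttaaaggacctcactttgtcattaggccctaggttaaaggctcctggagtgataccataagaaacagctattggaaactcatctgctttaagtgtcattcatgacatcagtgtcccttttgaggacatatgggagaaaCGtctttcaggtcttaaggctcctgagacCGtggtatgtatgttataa
MIR222HG, chrX:45629628-45629927, minus strand: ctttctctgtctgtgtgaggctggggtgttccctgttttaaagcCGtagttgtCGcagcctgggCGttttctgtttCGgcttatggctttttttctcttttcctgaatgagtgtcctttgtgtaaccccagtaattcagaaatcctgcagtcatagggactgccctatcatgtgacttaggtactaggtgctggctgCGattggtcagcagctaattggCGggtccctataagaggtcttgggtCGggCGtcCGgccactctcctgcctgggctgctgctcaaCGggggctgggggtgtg
ENSG00000272411, chr5:148349653-148349952, plus strand: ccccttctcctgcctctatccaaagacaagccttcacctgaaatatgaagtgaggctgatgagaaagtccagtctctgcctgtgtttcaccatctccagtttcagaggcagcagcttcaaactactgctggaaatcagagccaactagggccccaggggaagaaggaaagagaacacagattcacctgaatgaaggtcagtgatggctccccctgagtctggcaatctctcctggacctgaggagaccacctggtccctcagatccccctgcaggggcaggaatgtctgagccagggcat

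The CG dinucleotides numbered 34 at MALAT1, 22 at NEAT1 and 32 at SBF2-AS1. They numbered 2 at LINC02989, 2 at ENSG00000236098, 10 at MIR222HG and 0 at ENSG00000272411. Among these 7 sequences the letters TATAAA, searched on both strands, were found at NEAT1 and LINC02989.

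Most stand-alone lncRNA promoters carried no peak, and those that did carried H3K4me1 most often. A window counted as marked when it shared at least 1 bp with a peak. H3K4me3 was found at 1354 windows, or 10.1% (95% Wilson interval 9.59% to 10.6%), where the share over all 38596 lncRNA and protein-coding windows was 44.1%. H3K4me1 was found at 3112 windows, or 23.2% (22.5% to 23.9%), against 46.8% of all windows. H3K27ac was found at 1825 windows, or 13.6% (13.0% to 14.2%), against 44.7%. All 3 shares thus lay below those of promoters at large, H3K4me3 by most. Pol II was found at 1456 windows, or 10.8% (10.3% to 11.4%), against 41.9% of all windows. CTCF was found at 1161, or 8.65% (8.19% to 9.14%), against 14.6%. p300/CBP was found at 276 windows, or 2.06% (1.83% to 2.31%), against 1.29%, and was the only antibody of the 6 whose share was above that of all windows. No histone mark was found at 9991 windows, or 74.4%, against 45.5% of all windows, and no peak of any antibody at 9221, or 68.7%, against 41.7%. All 94 member windows on chromosome Y were among those with no peak, and whether the cells carry that chromosome cannot be read from the lists. These intervals cover counting error only, since the lists hold 1 set of positions per antibody and no value per replicate. Windows are not replicates, so no test between sets was made. All intervals, also those of differences, take windows as independent. Since 1483 members overlapped another member, they may be too narrow, and none stands for a test.

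**Figure D1:**
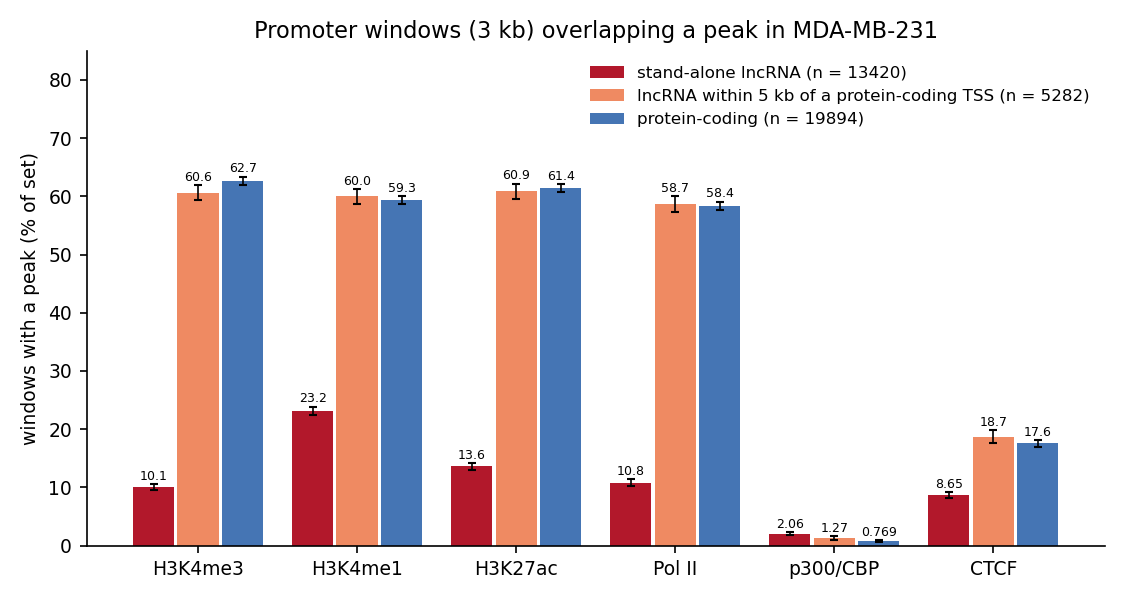
Share of 3 kb promoter windows that overlapped a peak of each antibody (y axis, percent of the set) in 13420 stand-alone lncRNA windows, 5282 lncRNA windows within 5 kb of a protein-coding TSS and 19894 protein-coding windows, with 95% Wilson intervals as bars. The lncRNA windows near coding TSSs stand level with the coding ones (60.6% and 62.7% for H3K4me3), the stand-alone windows stand far below (10.1%), and p300/CBP alone is ordered the other way (2.06%, 1.27% and 0.769%).

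lncRNA promoters near coding genes stood about level with coding ones, and stand-alone ones did not. At the 5282 lncRNA windows within 5 kb of a coding TSS, H3K4me3 was found at 60.6%, H3K27ac at 60.9% and Pol II at 58.7%, beside 62.7%, 61.4% and 58.4% of 19894 protein-coding windows. The difference of stand-alone minus protein-coding windows was -52.6 percentage points for H3K4me3 (Newcombe interval -53.4 to -51.8), -47.5 points for Pol II (-48.4 to -46.7), -8.91 points for CTCF (-9.61 to -8.19) and 1.29 points for p300/CBP (1.03 to 1.57).

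Member TSSs lay inside peaks more often than bases of the genome at large. H3K4me3 peaks covered 1.33% of the determined bases of the chromosomes used and 6.51% of the member TSSs. For H3K27ac these shares were 2.48% and 9.06%, and for Pol II 1.50% and 6.97%. For H3K4me1 they were closer, 5.87% and 11.2%. Members held 1207 of the 24693 H3K4me3 peaks, or 4.89% of that list, and 311 of the 13984 p300/CBP peaks, or 2.22%. The paper counts fewer p300/CBP, Pol II and CTCF peaks than the deposited lists hold, with the largest gap for p300/CBP. All p300/CBP shares given here rest on the longer, deposited list. p300/CBP peaks covered 0.0970% of the bases, 0.425% of member TSSs and 0.131% of protein-coding TSSs.

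The 3429 members with a histone mark fell mainly into 3 groups. The first had H3K4me3 and H3K27ac, the pair found at active promoters, and held 1182 windows, of which 981 also had H3K4me1 and 201 did not. The second had H3K4me1 and H3K27ac without H3K4me3, the pair found at active enhancers, and held 625 windows. The third had H3K4me1 alone and held 1432 windows, or 10.7% of members (10.2% to 11.2%). Few windows fell outside these groups. H3K4me3 occurred alone at 98 windows and with H3K4me1 only at 74, and H3K27ac occurred alone at 18.

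Pol II separated the groups. It was found at 946 of the 1182 windows with H3K4me3 and H3K27ac, or 80.0% (77.7% to 82.2%), with overlapping intervals for the 981 windows that also had H3K4me1, 80.3% (77.7% to 82.7%), and the 201 that did not, 78.6% (72.4% to 83.7%). Without H3K4me3, H3K4me1 and H3K27ac came with Pol II at 95 of 625 windows, or 15.2% (12.6% to 18.2%). H3K4me1 alone came with Pol II at 109 of 1432, or 7.61% (6.35% to 9.10%), and at the windows with no mark at 285 of 9991, or 2.85% (2.54% to 3.20%). H3K4me3 without H3K27ac rarely had Pol II, at 12 of 98 windows without H3K4me1 and 6 of 74 with it.

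p300/CBP followed H3K4me1 together with H3K27ac. Its share was 18.2% (15.4% to 21.5%) at the 625 windows with H3K4me1 and H3K27ac, 11.6% (9.76% to 13.8%) at the 981 windows with all 3 marks and 2.99% (1.38% to 6.36%) at the 201 windows with H3K4me3 and H3K27ac only. It was 0.768% where H3K4me1 stood alone and 0.270% where no mark was found. Of the 276 windows with p300/CBP, 249 had a histone mark, or 90.2% (86.1% to 93.2%). The other 27 had none, and 10 of those 27 lay less than 5 Mb from the longest run of undetermined bases on their chromosome, as did 903 of all 9991 windows with no mark and 19 of the 249 with p300/CBP and a mark. The part of these runs in the p300/CBP peaks was not tested.

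CTCF was spread more evenly. It was found at 29.7% of windows with all 3 marks, 29.9% with H3K4me3 and H3K27ac only, 15.5% with H3K4me1 and H3K27ac, 12.8% with H3K4me1 alone and 4.81% with no mark. Of the 1161 member windows with CTCF, 680 had a histone mark, or 58.6% (55.7% to 61.4%), beside 92.3% of protein-coding windows with CTCF. At the windows with no mark, CTCF was the commonest factor, alone at 459, while Pol II was alone at 269. At the windows with H3K4me3 and H3K27ac, Pol II stood without p300/CBP or CTCF at 591, with CTCF but not p300/CBP at 260, with p300/CBP but not CTCF at 77 and with both at 18. There were 139 such windows with none of the 3.

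**Figure D2:**
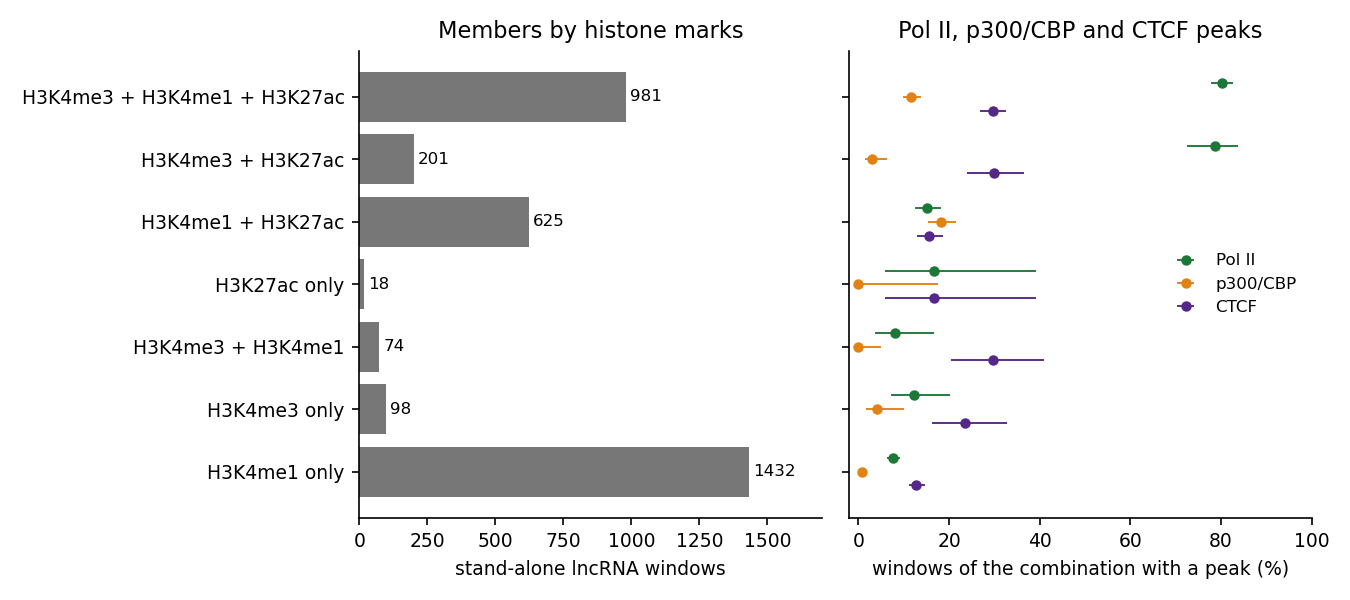
Left, number of stand-alone lncRNA windows with each combination of histone marks (x axis, windows; the 9991 with no mark are not drawn). Right, percent of the windows of each combination with a Pol II, p300/CBP or CTCF peak, with 95% Wilson intervals: Pol II is near 80% in both combinations of H3K4me3 with H3K27ac and at 16.7% or less in the others, and p300/CBP is highest, at 18.2%, where H3K4me1 and H3K27ac occur without H3K4me3.

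Among windows with H3K4me3 and H3K27ac, stand-alone lncRNA promoters differed from protein-coding ones in the factors they held. Of windows with H3K27ac, 64.8% of the stand-alone ones also had H3K4me3, beside 97.7% of protein-coding ones, a difference of -32.9 points (-35.2 to -30.8). Of windows with H3K4me1, 51.6% also had H3K27ac, beside 88.3%. Among windows with both H3K4me3 and H3K27ac, Pol II was found at 80.0% of stand-alone and 93.7% of protein-coding ones, and p300/CBP at 10.2% (8.56% to 12.0%) and 0.812% (0.667% to 0.990%). The difference for p300/CBP was 9.34 points (7.74 to 11.2). For CTCF the shares were 29.7% and 24.7%, a difference of 5.05 points (2.39 to 7.82). Among windows with H3K4me1 and H3K27ac and no H3K4me3, p300/CBP was found at 18.2% and 8.79% (9.45 points, 4.58 to 13.7), while the interval for Pol II, at 15.2% and 20.1%, held 0 (-4.95 points, -10.7 to 0.335). With H3K4me1 alone, CTCF was found at 12.8% of both.

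Over all windows with the mark, H3K4me3 and H3K27ac of stand-alone promoters were narrower and lay over the TSS less often than at protein-coding ones. H3K4me1 went the other way. Widths are those of the widest peak that touched the window, which may reach beyond it. For H3K4me3 it had a median width of 1400 bp at members, with quartiles of 800 and 2100 bp, and of 2250 bp at protein-coding windows, with quartiles of 1600 and 3000 bp. For H3K27ac the medians were 1650 and 2100 bp, and for H3K4me1 they were 1800 and 1600 bp. For Pol II they were nearly level, at 1150 and 1100 bp. A peak of H3K4me3 covered the TSS base at 64.5% of marked members and 83.3% of marked protein-coding windows. For H3K27ac these shares were 66.6% and 77.4%, and for H3K4me1 48.2% and 14.1%. At windows with both H3K4me3 and H3K27ac the H3K27ac shares were nearly level, 77.3% of members and 78.5% of protein-coding windows. Members were chosen at more than 5 kb from every coding TSS, which limits how many of these peaks can hold one. Of the 1354 members with H3K4me3, 5 had a peak that also held a protein-coding TSS, and 50 of the 1456 members with Pol II did. For Pol II the count was 13 of 109 at members with H3K4me1 alone and 7 of 95 at those with H3K4me1 and H3K27ac.

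H3K4me1 lay differently about the 2 kinds of start site. At protein-coding windows with H3K4me3 and H3K27ac it left the TSS bare, covering 39.9% of positions 1000 bp upstream, 7.91% of TSS bases and 36.0% of positions 1000 bp downstream. At members with the same pair it covered 46.1%, 36.7% and 46.2%, so the dip at the TSS was shallow. At members with H3K4me1 and H3K27ac and no H3K4me3 there was no dip, with 61.6%, 77.1% and 65.3%. These members were chosen for an H3K4me1 peak in the window, which by itself favours cover near its centre. The other sets did not need one, so this shape is not compared like with like. H3K4me3 extended downstream at protein-coding windows, over 43.1% of positions 1000 bp upstream and 79.1% of those 1000 bp downstream, and less so at members, over 29.9% and 46.7%.

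**Figure D3:**
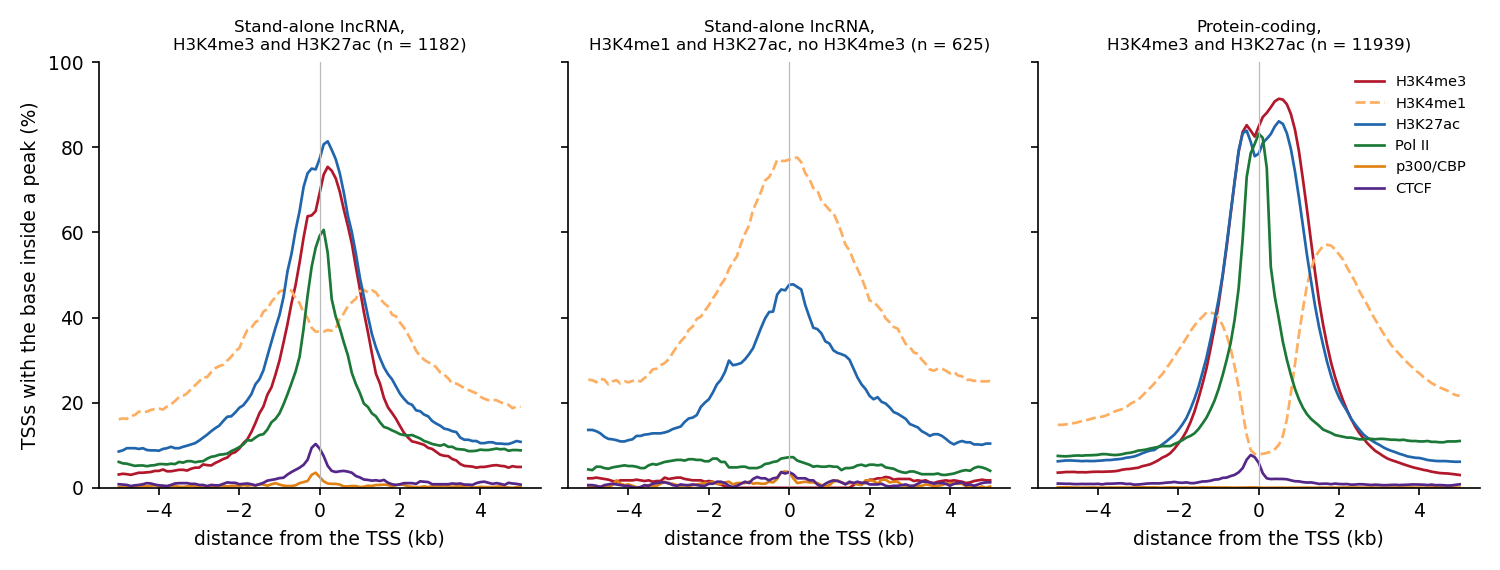
Percent of TSSs whose base at each distance (x axis, kb from the TSS, negative upstream, oriented by strand) lay inside a peak, for 1182 members with H3K4me3 and H3K27ac, 625 members with H3K4me1 and H3K27ac and no H3K4me3, and 11939 protein-coding windows with H3K4me3 and H3K27ac. The dashed H3K4me1 line falls to 7.91% at coding TSSs, to 36.7% at members of the first kind, and peaks over the TSS, at 77.1%, in those of the second. Only the second kind was chosen for an H3K4me1 peak in the window, which favours cover near its centre.

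The CG content of the sequence split the members with H3K4me3 and H3K27ac into kinds with different factors. A promoter was called CpG-rich when, over the same 300 bases as in the sequences above, the observed to expected CpG ratio was over 0.6 and GC over 50%. Of all members 9.64% were CpG-rich, beside 65.5% of protein-coding promoters. Among members with all 3 marks it was 44.8% (41.7% to 47.9%), with H3K4me3 and H3K27ac only 61.2% (54.3% to 67.7%), with H3K4me1 and H3K27ac 3.52% (2.34% to 5.27%), with H3K4me1 alone 3.49% and with no mark 6.13%. Read the other way, 47.0% (44.3% to 49.7%) of the 1294 CpG-rich members had H3K4me3, and 6.15% (5.74% to 6.59%) of the other 12126. CpG-rich protein-coding promoters had H3K4me3 at 83.7%.

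Among the members with H3K4me3 and H3K27ac, 562 were CpG-rich and 620 were not. p300/CBP was found at 9 of the CpG-rich ones, or 1.60% (0.845% to 3.02%), and at 111 of the others, or 17.9% (15.1% to 21.1%). Pol II was found at 89.1% and 71.8%, and H3K4me1 lay over the TSS itself at 14.6% and 56.8%. H3K4me3 lay over the TSS at 85.2% and 54.8%. At CpG-rich protein-coding promoters with the same pair the shares were 0.496% for p300/CBP (difference 1.11 points, 0.334 to 2.52), 94.5% for Pol II (-5.40 points, -8.28 to -3.05) and 85.4% for H3K4me3 over the TSS (-0.216 points, -3.46 to 2.56). H3K4me1 over the TSS was at 5.18% of them (9.41 points, 6.69 to 12.6) and CTCF at 24.6%, beside 32.0% of the CpG-rich members (7.44 points, 3.62 to 11.5). Of CpG-poor protein-coding promoters with the pair, 3.11% had p300/CBP (difference 14.8 points, 11.8 to 18.1), 87.4% had Pol II (-15.6 points, -19.6 to -11.8), 80.8% had H3K4me3 over the TSS (-26.0 points, -30.4 to -21.6) and 27.7% had H3K4me1 over the TSS (29.1 points, 24.5 to 33.6). For CTCF the CpG-poor shares were 27.6% and 25.1%, with an interval of the difference that held 0 (2.48 points, -1.60 to 6.72). The median H3K27ac width was 2000 bp at both CpG-poor sets, and 1650 bp at CpG-rich members beside 2100 bp at CpG-rich protein-coding promoters. This split was chosen after the values had been seen.

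**Figure D4:**
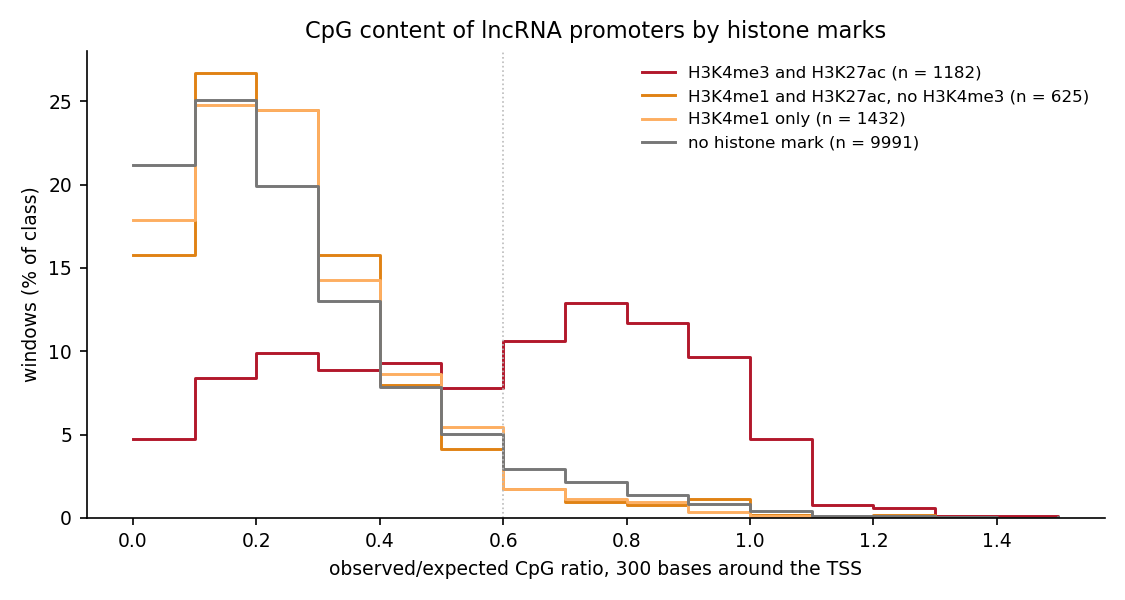
Distribution of the observed to expected CpG ratio (x axis, 300 bases around the TSS, bins of 0.1; dotted line, 0.6) in 4 classes of stand-alone lncRNA windows, as percent of the class. Windows with H3K4me3 and H3K27ac spread on both sides of 0.6, while the classes with H3K4me1 and H3K27ac, with H3K4me1 only and with no mark lie mostly below 0.4.

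The shares of promoters with short motifs also differed between mark combinations. The word TGANTCA is its own reverse complement and so reads the same on both strands. It covers the AP-1 consensus given in the paper, TGA(G/C)TCA, bound by Fra-1 and Fra-2, the factors this study set out from. It also covers words with A or T in the middle, which were not counted apart. It was present in 11.6% of member promoters, where it was present in 7.62% of all 38596. Median GC was 46.3% at members and 57.0% at all promoters, and its part in these shares was not tested. By mark combination the shares of the word also differed. TGANTCA was found in 20.2% (17.2% to 23.5%) of members with H3K4me1 and H3K27ac, 14.8% with H3K4me1 alone, 13.9% with all 3 marks, 4.98% (2.72% to 8.91%) with H3K4me3 and H3K27ac only and 10.6% (10.0% to 11.2%) with no mark. Over all promoters of these combinations, in the same order, the word was found in 17.9%, 12.4%, 4.84%, 3.43% and 9.09%. It was found in 75 of the 276 members with p300/CBP, or 27.2% (22.3% to 32.7%), and in 11.3% of those without. The letters GGGCGG, the GC box, were present on either strand in 13.4% of members and 42.6% of all promoters. With all 3 marks they were present in 46.3% of members and 71.6% of all promoters. TATAAA was present in 18.7% of members and 12.6% of all promoters, and with all 3 marks in 7.44% and 4.79%. The core CTCF motif was found in 72 members, or 0.537%, beside 0.482% of all promoters, and 62 of those 72 had a CTCF peak in the window, or 86.1% (76.3% to 92.3%). CTCF peaks without that core in the 300 bases were far more numerous, at 1099 members, and most of the 3 kb window was not searched.

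Distance from coding genes went with all shares except that of p300/CBP. The median member lay 54.0 kb from the nearest protein-coding TSS. From the 1384 windows at 5 to 10 kb to the 946 windows beyond 500 kb, H3K4me1 went from 32.2% (29.7% to 34.7%) to 7.29% (5.80% to 9.13%), H3K27ac from 17.3% to 5.92% and H3K4me3 from 12.8% (11.1% to 14.7%) to 4.33% (3.21% to 5.83%). Pol II went from 24.3% (22.2% to 26.7%) to 3.59% (2.58% to 4.98%). At 5 to 10 kb Pol II was thus commoner than H3K4me3, and at 200 to 500 kb it was less common, with 2.39% (1.78% to 3.19%) and 4.99% (4.09% to 6.08%). p300/CBP was at 1.81% (1.23% to 2.65%) in the nearest windows and at 2.01% (1.29% to 3.12%) in the farthest, and between 1.67% and 2.33% in the bins between. CTCF went from 11.6% to 4.44%.

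**Figure D5:**
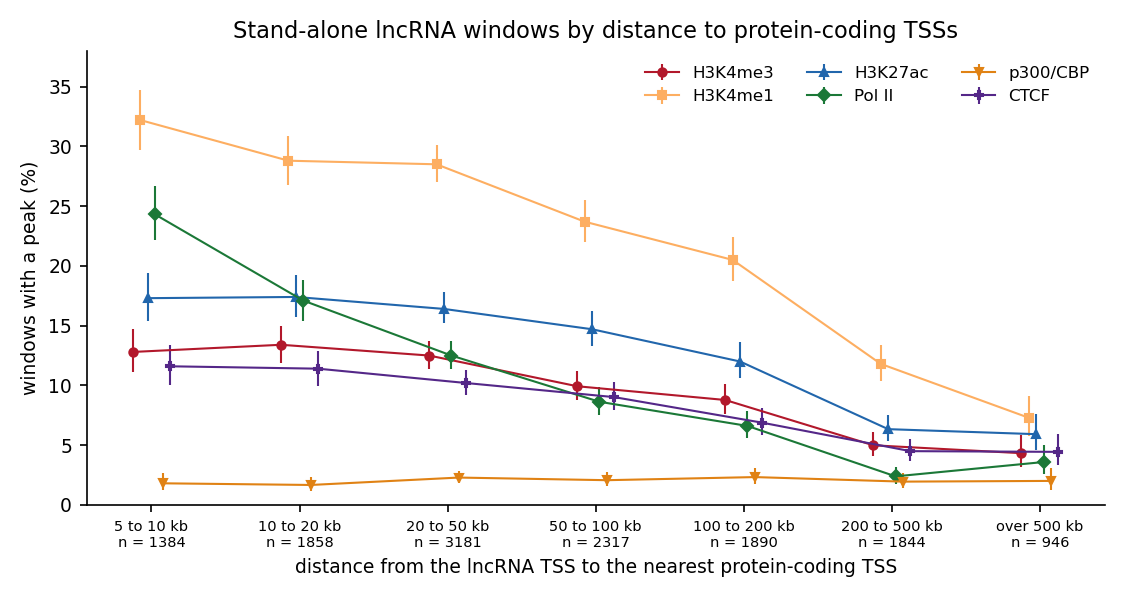
Percent of stand-alone lncRNA windows with a peak (y axis) by distance from the lncRNA TSS to the nearest protein-coding TSS (x axis, 7 bins with their numbers of windows), with 95% Wilson intervals. The lines of the histone marks, Pol II and CTCF fall with distance, Pol II from 24.3% to 3.59%, and that of p300/CBP stays near 2%.

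The shares also differed by position relative to coding genes. The 9409 members whose TSS lay outside every protein-coding gene had H3K4me3 at 12.3% (11.6% to 13.0%). Those inside a gene had it at 4.93% (4.19% to 5.79%) of 2839 on the opposite strand and 5.20% (4.03% to 6.70%) of 1076 on the same strand. Pol II differed less, at 11.0%, 10.7% and 8.36%, and 25 of the 96 windows inside genes of both strands had it, while 3 of them had H3K4me3. The Pol II peaks at members with H3K4me1 alone were wide, with a median of 3800 bp, beside 1100 bp at members with all 3 marks. Members whose canonical transcript had 1 exon had Pol II at 19.7% (17.9% to 21.6%), and those with 2 exons at 9.42% (8.64% to 10.3%).

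Members that lay beside another member were marked more often. In 11937 windows no other member window overlapped, and 6.66% (6.23% to 7.12%) had H3K4me3 and H3K27ac. Where the nearest other member began upstream on the opposite strand, as at a divergent promoter, 180 of 635 windows had the pair, or 28.3% (25.0% to 32.0%), and 32.0% were CpG-rich. Where it began downstream on the opposite strand, 124 of 412 had the pair, or 30.1% (25.9% to 34.7%), and 23.8% were CpG-rich. Where it was on the same strand, 83 of 436 had the pair (interval of the share 15.6% to 23.0%). Such windows share peaks, so they are not independent: 206 H3K4me3 peaks lay at more than 1 member, and up to 5 members shared a peak. This grouping was made after the values had been seen.

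The snoRNA host genes, which carry small nucleolar RNAs in their introns and are transcribed in most cells, were the most uniformly marked list. Of the 31 genes listed, 19 were stand-alone, and 17 of these had H3K4me3, H3K27ac and Pol II, against the shares of 10.1%, 13.6% and 10.8% over all members. Without exception those 17 had an H3K4me3 peak over the TSS, between 1300 bp wide at SNHG11 and 5200 bp wide at SNHG16 and SNHG5. DANCR had an H3K4me3 peak of 2800 bp, an H3K27ac peak of 3650 bp and a Pol II peak of 6550 bp. SNHG17 had the widest Pol II peak of the list, 22650 bp, beside an H3K4me3 peak of 3850 bp. SNHG5 had no H3K4me1 in the window, and its promoter held 43 CG dinucleotides. The exceptions were SNHG14, from the imprinted Prader-Willi region, and SNHG27, neither of which had a peak of any antibody in the window. The canonical TSS of SNHG14, at chr15:25438460, lies inside the gene, which starts at chr15:25223730, and that start was not examined. None of the 19 had p300/CBP, where 2.06% of all members did, so few or none would be looked for in a list of this size. GAS5 and SNHG1, the best known hosts, were not members, since they start 93 bp and 82 bp from the TSSs of ZBTB37 and SLC3A2.

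The microRNA host genes were divided. Of 67 stand-alone hosts, 23 had H3K4me3 and H3K27ac, 3 had H3K4me1 and H3K27ac without H3K4me3, 3 had H3K4me1 alone and 38 had no mark. Pol II was found at 23, or 34.3%, and CTCF at 16. Over all members 10.1% had H3K4me3, 10.8% had Pol II, 8.65% had CTCF and 74.4% had no mark, and over all windows these shares were 44.1%, 41.9%, 14.6% and 45.5%. The widest H3K4me3 and H3K27ac peaks of all members lay at MIR222HG, the host of miR-221 and miR-222, on chromosome X and 570 kb from the nearest coding TSS. There H3K4me3, listed at chrX:45616601-45634301, was 17700 bp, H3K27ac 30200 bp and Pol II 32450 bp wide. ENSG00000269902, which starts downstream within the same peaks, shared all 3. MIR17HG, which encodes the miR-17-92 cluster, had H3K4me3 of 2500 bp and a Pol II peak of 19000 bp, both downstream of the TSS, and a separate Pol II peak over it. MIR23AHG had H3K4me3 of 8100 bp and Pol II of 13350 bp. MIRLET7IHG, a let-7 host, had H3K4me3 of 4200 bp and Pol II of 18700 bp, and MIRLET7BHG had H3K4me3 of 5550 bp and Pol II of 3500 bp. At MIR222HG and the last 3 of these hosts the Pol II peak of the width given covered the TSS.

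Other hosts had H3K4me3 with a small Pol II peak or none. MIR34AHG, whose microRNA is a target of p53, had H3K4me3 of 650 bp, H3K27ac of 350 bp and H3K4me1 of 3950 bp, and no Pol II peak. MIR193BHG had H3K4me3 of 2200 bp and no Pol II peak. MIR181A1HG had H3K4me3 of 5550 bp, H3K27ac of 8900 bp and a Pol II peak of 450 bp, and no CG dinucleotide in its promoter. A p300/CBP peak there only touched the edge of the window, away from the TSS. MIR924HG lay 2155 kb from the nearest coding TSS, the farthest with H3K4me3 and H3K27ac among members with a given symbol, and had H3K4me3 of 2150 bp and Pol II of 850 bp over the TSS. MIR3681HG and MIR365BHG were of the other kind, with H3K4me1 of 5600 and 4150 bp, H3K27ac of 4350 and 1600 bp and neither H3K4me3 nor Pol II.

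Hosts without a mark included several with a CpG-rich promoter. MIR100HG held 31 CG dinucleotides and MIR31HG held 38 in 300 bases, and neither had a peak of any antibody. MIR155HG and MIR99AHG had none either, and MIR205HG, whose microRNA is known from epithelial cells, was also bare. At MIR137HG the lists held a Pol II peak of 6250 bp over the TSS and no histone mark. Each host was read at its canonical TSS only, and other start sites were not examined. The lists also do not tell a bare window from one whose sequence the cells lack.

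Of 50 lncRNAs named for their part in cancer or their wide study, 45 were found and 34 were stand-alone. H3K4me3 was found at 18, or 52.9%, Pol II at 14, or 41.2%, and no mark at 12. These shares of H3K4me3 and Pol II lay above those of all members, 10.1% and 10.8%, and nearer those of all windows, 44.1% and 41.9%. No mark was found at 74.4% of all members and 45.5% of all windows. MALAT1 and NEAT1, the abundant nuclear RNAs of speckles and paraspeckles, had H3K4me3 of 9950 bp at chr11:65263901-65273851 and of 9800 bp at chr11:65185951-65195751, H3K27ac of 19200 and 11900 bp and Pol II of 12000 and 29300 bp. TALAM1, the antisense partner of MALAT1, starts inside the same Pol II peak. NORAD, which binds Pumilio proteins, had H3K4me3 of 3650 bp and Pol II of 2700 bp. KCNQ1OT1, the imprinted antisense RNA within KCNQ1, had H3K4me3 of 2750 bp and Pol II of 1350 bp. All of these covered the TSS, except that the H3K4me3 peak at TALAM1 lay beside it.

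LINC00511 had H3K4me3 of 4550 bp and a Pol II peak of 400 bp. AFAP1-AS1 had H3K4me3 of 4650 bp and Pol II of 3100 bp, and DLEU1 and DLEU2, from a stretch of chromosome 13 often deleted in leukaemia, had H3K4me3 of 7000 and 3950 bp and Pol II of 2550 and 2750 bp. PVT1, 56.8 kb from MYC, had H3K4me3 of 4100 bp, H3K27ac of 10800 bp and Pol II of 900 bp that did not cover the TSS. Among the well-marked genes CYTOR and MIR4435-2HG had nearly the same peaks, with H3K4me3 of 3450 and 3300 bp, H3K27ac of 6800 and 6500 bp and p300/CBP of 400 and 350 bp. They are near-identical copies on chromosome 2, and how reads were divided between them is uncertain.

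LUCAT1 differed from these. Its H3K4me3 peak was 200 bp wide and off the TSS, while H3K4me1 of 6550 bp, H3K27ac of 4500 bp and p300/CBP of 150 bp lay over it and no Pol II peak was found. UCA1 had H3K4me3 of 550 bp and H3K4me1 of 1800 bp with neither H3K27ac nor Pol II. NRAD1 and LINC01638 had H3K4me1 and H3K27ac without H3K4me3, and LINC00520 and LINC01133 had H3K4me1 alone. No histone mark was found in the windows of H19 or MEG3, which are imprinted, of BCAR4, LINP1, BANCR or LINC-ROR, or of CASC15. H19 had a CTCF peak of 800 bp. These windows stand for the canonical TSS of each gene, and other start sites of these genes were not examined. HOTAIR was not a member, since it starts 1828 bp from the TSS of HOXC11. The lists were chosen with earlier results of these data known, and their shares are descriptions with no test.

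Peaks of all 6 antibodies met at 16 members, or 0.119% (0.0734% to 0.194%), beside 0.137% (0.105% to 0.180%) of all windows. Of the 10 with the widest H3K27ac, 1 was CpG-rich, SBF2-AS1, where 9.64% of all members were. ENSG00000236098, 86.9 kb from ARHGAP29, had H3K27ac of 10200 bp at chr1:94786351-94796551, H3K4me1 of 21150 bp, H3K4me3 of 2550 bp and Pol II of 3450 bp over the TSS, with p300/CBP of 650 bp and CTCF of 250 bp in the window. LINC02989, 7.12 kb from MICAL2, had H3K27ac of 8500 bp at chr11:12105051-12113551 and p300/CBP of 250 bp. SBF2-AS1 and LINC02709 start from opposite strands under the same peaks, with H3K27ac of 4650 bp, H3K4me3 of 1700 bp, Pol II of 4600 bp and p300/CBP of 400 bp. LRRC2-AS1 and ENSG00000288718 likewise shared H3K27ac of 4350 bp, so these 4 genes stand for 2 sites. ENSG00000267737, 44.3 kb from SOCS3, had p300/CBP of 200 bp over the TSS.

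Very wide peaks were found in several combinations. Among members with all 3 marks the widest H3K4me3 was at HIF1A-AS3, 13950 bp with Pol II of 48100 bp, and next came ENSG00000277945 inside HMGA2, 11000 bp, and ENSG00000234961 inside VIM, 10050 bp. The last 2 lie 5.63 and 5.55 kb from the coding TSS, and their H3K4me3 peaks held a protein-coding TSS, so they are not separate from the coding promoters' marks. Among members with H3K4me1 and H3K27ac, ENSG00000224950 and ENSG00000286276 shared H3K27ac of 15800 bp near CD58. ENSG00000272411 inside SH3TC2 had H3K27ac of 14700 bp within H3K4me1 of 35650 bp. ENSG00000239739 had H3K27ac of 15650 bp and a Pol II peak of 200 bp.

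H3K4me3 without H3K27ac was rare and most of its peaks were small. The widest, 16500 bp at a window with H3K4me1 also, held a protein-coding TSS. The median width was 550 bp at the 98 windows with H3K4me3 alone and at the 74 with H3K4me1 also, beside 1550 bp at windows with all 3 marks. Among those with H3K4me3 alone, the peak was 2200 bp wide at ENSG00000268970 inside ZNF83 and 1400 bp wide at ENSG00000291101 near ZNF136. Zinc finger genes of the ZNF series were the nearest coding gene at 12 of the 98 windows, or 12.2% (7.15% to 20.2%), at 9 of the 74, or 12.2% (6.53% to 21.5%), at 15 of the 201 with H3K4me3 and H3K27ac only, or 7.46% (4.57% to 11.9%), and at 370 of all members, or 2.76% (2.49% to 3.05%). These genes were counted after the widest peaks had been seen. LINC01902, 2113 kb from any coding TSS, had H3K4me3 of 1000 bp and CTCF of 250 bp, both over the TSS, in a promoter with 28 CG dinucleotides.

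Genes known only by an identifier made up most of the members and had H3K4me3 less often than most groups of named genes. Of 9668 such members 8.15% (7.62% to 8.71%) had H3K4me3 and 1.94% (1.69% to 2.24%) had p300/CBP. Genes named LINC had H3K4me3 at 12.8% (11.4% to 14.2%) of 2116, antisense genes at 10.7% (8.74% to 13.0%) of 815, and genes with another given symbol at 27.2% (23.8% to 30.9%) of 607. The shares of p300/CBP were 2.41%, 1.96% and 2.64%, with intervals that overlap. Genes named as intronic or overlapping went the other way, with H3K4me3 at 3 of 117, or 2.56% (0.876% to 7.27%).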

How the data were processed

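ChIP-seq peaks of MDA-MB-231 cells were analysed for 6 antibodies. Per the paper's methods, the authors aligned reads to hg19 with BWA-backtrack (the submitters' processing notes name Bowtie2), made a signal with PASHA, merged the libraries of an antibody and took as peaks the stretches above a threshold set in the Integrated Genome Browser. The names of the deposited lists give reads that mapped to 1 place, 50-bp bins and the settings of each list. The thresholds were 30 for H3K4me1 and H3K4me3, 50 for H3K27ac, Pol II and CTCF, and 60 for p300/CBP. Bins were joined over gaps of up to 1000 bp for H3K4me1, 800 bp for Pol II, 500 bp for H3K4me3 and H3K27ac and 50 bp for p300/CBP and CTCF, which affects the widths. The deposited lists hold positions in base pairs and no value per peak. Depth and replicate error are therefore unknown from these lists, and input libraries were not used here. The end of a peak was taken as the first base after it.

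TSSs came from GENCODE release 44 on GRCh37, the build of the lists, and sequences from the GRCh37 genome. Positions were compared with Python 3.11.15 and NumPy 2.4.6, and figures were drawn with matplotlib 3.10.9. Shares carry 95% Wilson intervals and differences Newcombe intervals, whose functions were tested on simulated data. Named genes were the stand-alone members of the lists of snoRNA hosts, microRNA hosts and known lncRNAs, up to 5 with the widest peak and the 1 with a given symbol farthest from coding TSSs in each of 8 mark combinations, and up to 10 with all 6 peaks by H3K27ac width. Some members that this rule names are not reported here. The members and lists were chosen with earlier results of these data known. Alternatives changed the window, the overlap, the widths kept, the distance limit, overlapping windows and gene bodies.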

Additional observations from a re-analysis of the deposited data

How the results depend on the processing

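The lists give depth no value and peaks no height, so what the threshold left out cannot be seen, and a window with no peak is one not called at that threshold. The lists do not tell such a window from one whose sequence the cells lack. Annotated TSSs were not compared with RNA here. Each gene was read at its canonical TSS only, so a gene called unmarked may have marks at another start site. No replicate could be left out and no other normalization tried, since the libraries of each antibody had been merged before peaks were called. No paired analysis was possible because the lists carry no replicate numbers and no result comes from a test. Of 72 values under alternatives, 34 stayed within the interval of the main value, 8 of the other 38 were higher and 30 lower. With windows of 1 kb, H3K4me3 was found at 8.84%, H3K4me1 at 16.0%, H3K27ac at 11.6%, Pol II at 9.17%, p300/CBP at 1.25%, CTCF at 5.17% and no mark at 79.7% of members. With the centre of a peak required inside the window, the shares were 9.23%, 16.4%, 11.5% and 8.68% for H3K4me3, H3K4me1, H3K27ac and Pol II, 8.10% for CTCF and 78.6% for no mark, and Pol II was at 75.7% of windows with H3K4me3 and H3K27ac. When peaks narrower than their list's median were dropped, the shares were 6.20%, 15.4%, 8.64%, 6.68%, 1.51% and 6.18% in the order of the 6 antibodies and 81.7% for no mark, and Pol II was at 70.0% of windows with H3K4me3 and H3K27ac. For members more than 20 kb from coding TSSs they were 9.12%, 20.9%, 12.4% and 7.88% for H3K4me3, H3K4me1, H3K27ac and Pol II, 7.75% for CTCF and 76.6% for no mark, and Pol II was at 11.0% of windows with H3K4me1 and H3K27ac. Keeping overlapping windows once gave 8.92%, 12.6% and 9.76% for H3K4me3, H3K27ac and Pol II, 75.4% for no mark and Pol II at 77.6% of windows with H3K4me3 and H3K27ac. For windows outside coding gene bodies H3K4me3 was at 12.2%, H3K27ac at 15.2%, p300/CBP at 2.33% and Pol II at 10.1% of windows with H3K4me1 and H3K27ac. The 2 alternatives chosen after seeing the data, leaving out peaks that hold a coding TSS or windows less than 5 Mb from the longest run of undetermined bases, kept each of the 9 results within its interval.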
